A study of Mus musculus with 5 samples.

Results

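The genes described here are 47 genes of G2 and mitosis, the stages in which a cell that has copied its DNA prepares to divide and then separates its chromosomes. They were followed in retina of mutant mice (Rb-), labelled as a knockout of the retinoblastoma tumour suppressor Rb, set against wild-type mice. A spot was taken where the platform annotation gave it a single gene symbol and that symbol was one of the 47. Of these genes, 31 had such a spot, 45 spots in all, and 30 genes with 40 spots were measured on at least 4 of 5 arrays and enter every count and test below. The whole table tested held 10036 probes, of which 5822 carried a single symbol, for 4625 genes. No single-symbol spot was listed for Ccnb1, Plk1, Aurka, Bub1b, Mki67, Cenpe, Kif23, Cks1b, Cks2, Nusap1, Ncapd2, Ttk, Prc1, Hmmr, Tacc3 and Tuba1b, which are 16 genes. Aurkb had a spot that was measured on only 2 arrays.

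The data are 5 dual-colour spotted arrays with 17328 spots each. Every array carried total RNA of wild-type mice in channel 1 and of mutant mice in channel 2, and the title of the series speaks of explants of the retina, pieces of tissue that are cultured. The 5 arrays form 1 group and are numbered 1 to 5. The sources used here do not give the allele, the age, the culture time, the number of animals behind each RNA or the means by which Rb was removed. The limits of the model therefore cannot be stated further. The labels do not name the dye of either RNA, so the sign of a ratio could not be assigned. A positive log2 ratio is positive as deposited, and neither sign is called higher or lower in the mutant. Ratios carry no level, so the markers of a cell type could not be used to check that the tissue was retina. In a bulk sample of tissue, fewer cells of a type and less RNA per cell cannot be told apart.

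The cyclin-dependent kinase CDK1, bound to cyclin A or cyclin B, drives entry into mitosis once CDC25 phosphatases remove its inhibitory phosphates. Spindle checkpoint proteins then hold back the anaphase-promoting complex until every kinetochore is attached. Most of these genes are transcribed late in the cycle, and their promoters are known for CCAAT boxes bound by NF-Y and for the cell cycle genes homology region, the CHR, bound by the DREAM and MuvB complexes. DREAM contains a pocket protein of the Rb family together with an E2F factor, and Rb itself restrains E2F. In the developing retina these genes mark dividing progenitors.

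The promoters of 7 measured genes are shown first, and the ratios of these genes are given further on. Each window holds 250 bases before and 50 bases after the start of transcription, from RefSeq on build GRCm38.p6, written 5′ to 3′ on the strand of the gene. Capitals mark a match to TTTGAA (the CHR), CCAAT, or TTTGGCGC or TTTCGCGC (E2F) on either strand, so a match on the other strand appears as its reverse complement. In these 7 windows no matches overlapped.
Cdk1, chr10:69352863-69353162, minus strand: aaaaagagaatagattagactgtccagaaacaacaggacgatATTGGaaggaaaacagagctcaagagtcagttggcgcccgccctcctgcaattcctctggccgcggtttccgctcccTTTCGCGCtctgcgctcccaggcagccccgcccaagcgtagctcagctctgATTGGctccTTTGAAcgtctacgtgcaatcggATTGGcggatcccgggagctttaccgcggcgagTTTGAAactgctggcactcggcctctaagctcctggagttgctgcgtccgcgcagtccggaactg
Ccnb2, chr9:70421505-70421804, minus strand: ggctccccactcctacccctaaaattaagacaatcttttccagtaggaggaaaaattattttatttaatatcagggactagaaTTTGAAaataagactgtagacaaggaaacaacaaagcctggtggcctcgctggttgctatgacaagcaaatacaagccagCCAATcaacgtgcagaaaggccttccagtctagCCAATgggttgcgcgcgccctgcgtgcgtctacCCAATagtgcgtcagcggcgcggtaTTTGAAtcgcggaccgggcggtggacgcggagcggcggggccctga
Cdc25a, chr9:109875329-109875628, plus strand: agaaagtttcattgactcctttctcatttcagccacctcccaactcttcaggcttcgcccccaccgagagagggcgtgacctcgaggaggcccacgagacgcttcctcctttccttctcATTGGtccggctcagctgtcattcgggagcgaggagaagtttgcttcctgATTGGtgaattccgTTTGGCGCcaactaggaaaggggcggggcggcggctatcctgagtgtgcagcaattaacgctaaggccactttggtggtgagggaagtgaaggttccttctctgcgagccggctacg
Cdc20, chr4:118437294-118437593, minus strand: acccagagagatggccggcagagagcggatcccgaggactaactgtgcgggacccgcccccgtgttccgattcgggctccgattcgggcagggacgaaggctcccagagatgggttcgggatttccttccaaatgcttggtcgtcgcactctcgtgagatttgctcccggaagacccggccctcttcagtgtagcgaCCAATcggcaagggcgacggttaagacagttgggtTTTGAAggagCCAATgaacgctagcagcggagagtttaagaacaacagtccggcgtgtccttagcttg
Mad2l1, chr6:66534971-66535270, plus strand: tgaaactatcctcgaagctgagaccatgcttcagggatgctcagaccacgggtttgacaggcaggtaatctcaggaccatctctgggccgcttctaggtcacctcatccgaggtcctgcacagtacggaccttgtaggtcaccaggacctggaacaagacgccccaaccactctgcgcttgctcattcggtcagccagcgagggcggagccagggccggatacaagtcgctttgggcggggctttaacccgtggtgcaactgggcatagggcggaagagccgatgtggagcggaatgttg
Smc2, chr4:52438971-52439270, plus strand: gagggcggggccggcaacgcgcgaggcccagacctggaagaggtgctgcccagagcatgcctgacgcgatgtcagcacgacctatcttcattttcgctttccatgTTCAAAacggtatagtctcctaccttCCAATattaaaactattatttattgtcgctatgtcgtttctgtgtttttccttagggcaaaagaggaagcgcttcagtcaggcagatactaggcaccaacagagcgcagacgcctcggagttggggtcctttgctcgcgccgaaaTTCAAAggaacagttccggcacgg
Top2a, chr11:99024140-99024439, minus strand: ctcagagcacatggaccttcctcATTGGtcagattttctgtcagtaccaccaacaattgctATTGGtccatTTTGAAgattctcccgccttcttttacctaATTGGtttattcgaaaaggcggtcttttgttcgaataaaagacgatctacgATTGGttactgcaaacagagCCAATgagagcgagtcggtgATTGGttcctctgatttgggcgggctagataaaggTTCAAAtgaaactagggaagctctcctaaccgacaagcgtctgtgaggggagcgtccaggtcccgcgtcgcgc

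Cdk1 on chromosome 10 held 2 CHR matches, at bases -71 to -66 and -15 to -10 from the start, 3 CCAAT matches, and the E2F match TTTCGCGC at -131 to -124. Ccnb2, which encodes cyclin B2, held 3 CCAAT matches that begin at -87, -54 and -21 and CHR matches at -167 to -162 and, past the start, at 5 to 10. Cdc25a held no CHR match but 2 CCAAT matches and the E2F match TTTGGCGC at -67 to -60. Cdc20 held a CHR match between its CCAAT matches, Smc2 held 2 CHR matches and 1 CCAAT match, and Top2a held 2 CHR matches and 6 CCAAT matches. Mad2l1 held no match to any of these letters, which says nothing about the factors that act on it.

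The promoter table held 25 windows for 23 of the 30 measured genes. It held none for Ccna2, Cdc25c, Incenp, Kif20a, Tpx2, Stmn1 and Smc4. A CHR match was present in 14 of the 25 windows (56%), against 17.9% of all 32851 windows of this length and 10.9% of the 4972 windows of single-symbol genes on these arrays. CCAAT was present in 21 of 25 (84%), against 37.4% and 36.9%. The E2F letters were present in 2 of 25 (8%), against 0.813% and 1.71%. All 14 windows with a CHR match also held CCAAT, and 4 windows held no match, those of Birc5, Mad2l1 and Ran and 1 of the 2 Hmgb1 windows. Matches are letters in a window, not sites shown to be bound, and no test of the shares was made.

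**Figure D1:**
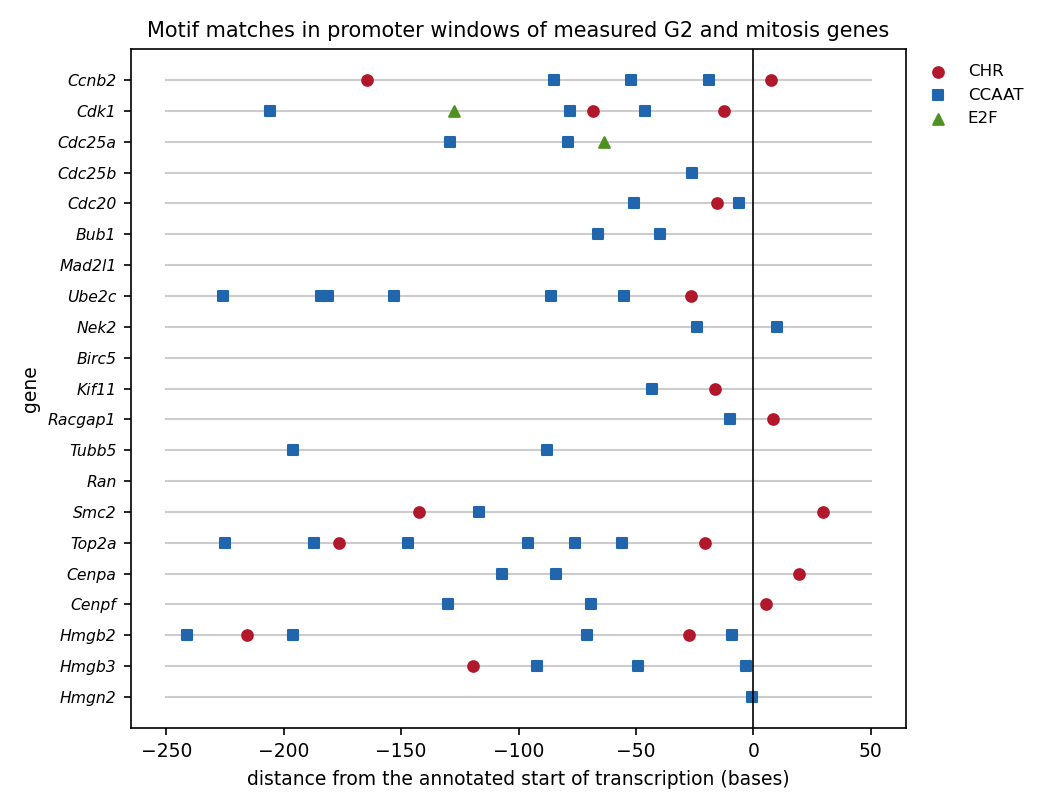
Positions of motif matches from 250 bases before to 50 bases after the annotated start of transcription (x axis, bases; vertical line, start) in the 21 measured genes with a single window (y axis). Circles are CHR, squares CCAAT and triangles E2F matches; E2F matches are seen in Cdk1 and Cdc25a, and the rows of Mad2l1, Birc5 and Ran are empty.

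Most G2 and mitosis probes had positive log2 ratios on arrays 1, 3 and 4 (31 of 39, 28 of 36 and 29 of 37), with smaller ratios on array 4. On arrays 2 and 5 they were spread around the middle of all probes, with 23 and 13 of 40 positive. Of the member probes measured, 32 of 39 lay above the median of all tested probes on array 1, 23 of 40 on array 2, 31 of 36 on array 3, 29 of 37 on array 4 and 17 of 40 on array 5. Among all tested probes that share was 50%, 49.9%, 49.9%, 50% and 50%, and among single-symbol probes 43.2%, 52.2%, 44.6%, 53.3% and 44.8%. The median of the member probes minus the median of all tested probes came to 1.33, 0.12, 1.39, 0.49 and -0.05 for arrays 1 to 5. Its average over the arrays, 0.66 ± 0.67 (SD, n = 5), was about as large as its spread. Within each array the median member probe stood at percentile 83.6, 59.7, 85.4, 75.8 and 47.5. Arrays 1 and 3 lay apart from arrays 2 and 5, and array 4 lay between them.

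**Figure D2:**
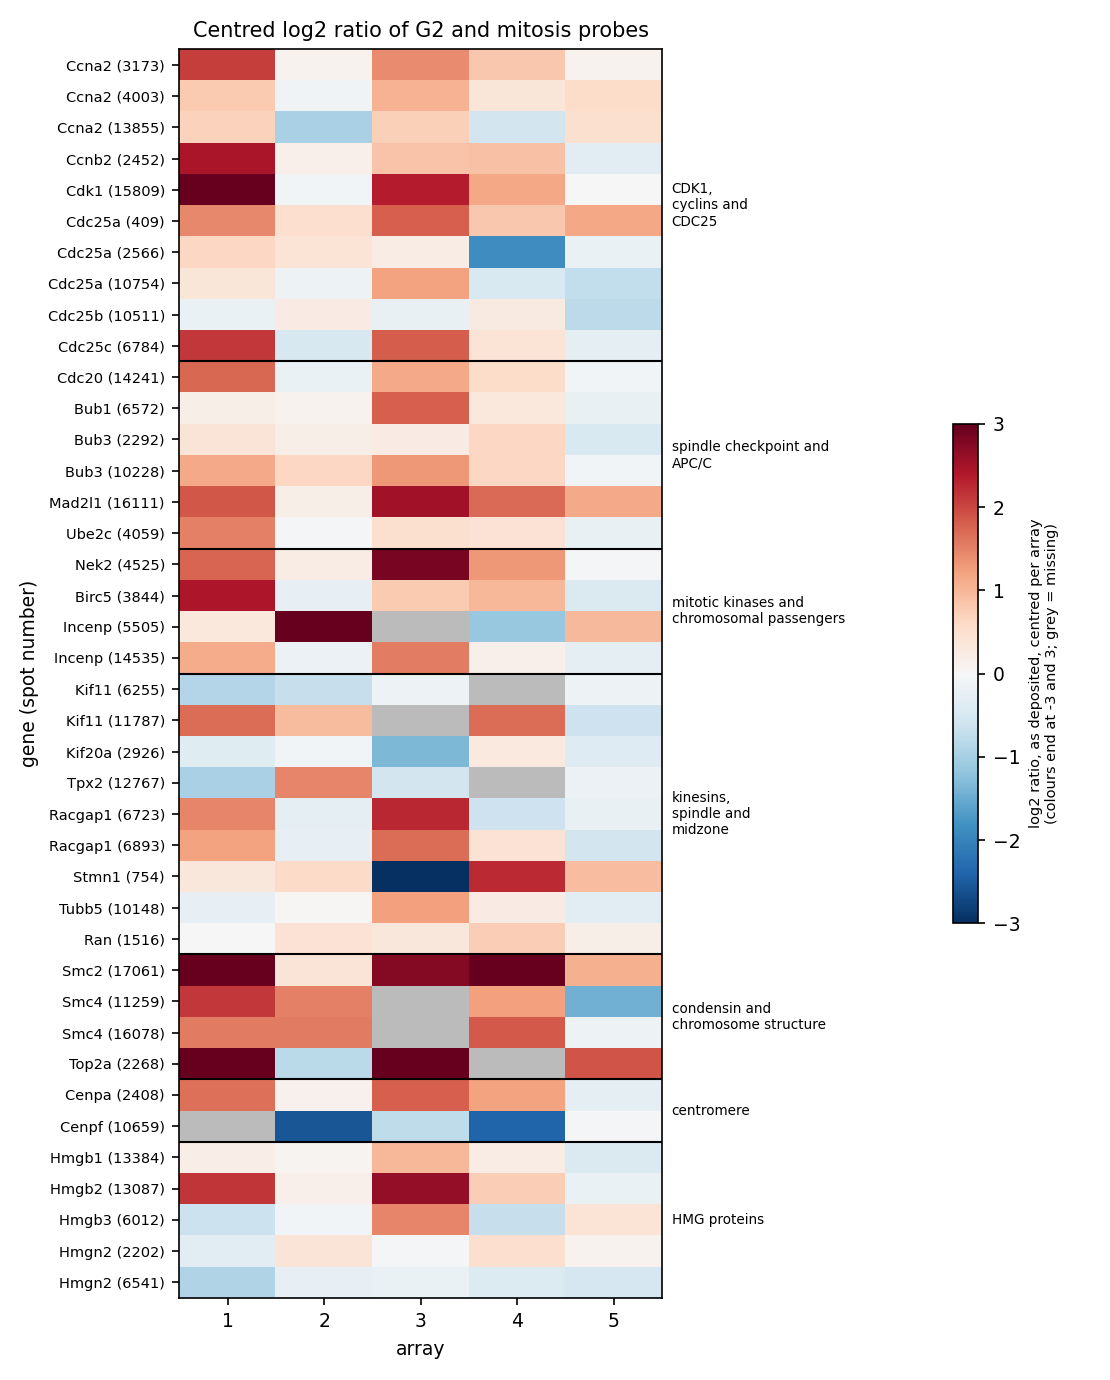
Centred log2 ratios of the 40 tested probes (rows, gene with spot number, grouped by role) on arrays 1 to 5 (columns). Red is positive and blue negative as deposited, colours end at -3 and 3, and grey cells were missing; columns 1 and 3 hold most of the dark red cells, as Cdk1 with 3.78 and 2.36 shows.

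A log2 ratio over 1 was found for 21 of 39 member probes on array 1, 4 of 40 on array 2, 20 of 36 on array 3, 9 of 37 on array 4 and 4 of 40 on array 5. The shares among all tested probes were 18.6%, 9.66%, 17.1%, 11.2% and 14.5%, and among single-symbol probes 12%, 6.68%, 11.8%, 9.29% and 9.23%. On both arrays 1 and 3, 15 of 35 member probes exceeded 1, for 14 genes, against 7.26% of all probes and 4.37% of single-symbol probes. These 14 genes were Ccna2, Cdk1, Cdc25a, Cdc25c, Cdc20, Bub3, Mad2l1, Nek2, Incenp, Racgap1, Smc2, Top2a, Cenpa and Hmgb2. Among the 32 member probes measured on all 5 arrays, 17 had higher ratios on arrays 1 and 3 than on each of arrays 2, 4 and 5, against 11.4% of all probes and 8.46% of single-symbol probes. This split of the arrays was chosen with their values known. Of these 14 genes 11 had a promoter window, and 8 of the 11 held a CHR match, as did 5 of the 12 other measured members with a window. The genes were grouped here by their ratios, so these counts are a description.

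No member passed the test over all probes. With limma and Benjamini-Hochberg adjustment over 10036 probes, 0 of the 40 member probes had an adjusted p under 0.05, where the share of all probes called was 0%. Their adjusted p ran from 0.395 to 0.967. At an unadjusted p under 0.05 limma gave 8 positive member probes and 1 negative one of 40, against 5.52% positive and 5.9% negative among all probes and 3.35% and 6.18% among single-symbol probes. In either direction the share was 11.4% of all probes and 9.53% of single-symbol probes. The positive ones were probes of Ccna2, Cdc25a, Bub3, Mad2l1, Nek2, Smc2, Smc4 and Top2a, and the negative one was Cenpf. This count of 9 was 4 without array 1, 7 without array 2 and 4 without array 3. It was 4 without array 4 and 13 without array 5. The shares of all probes in these fits were 8.42%, 11.7%, 8.23%, 9.62% and 9.06%. Without both arrays 1 and 3 the count was 2 of 40, against 8.5% of all probes. With array quality weights it was 4 of 40, against 11.6% of all probes. No label ties the arrays to separate animals or cultures, so these p-values measure only the spread between the arrays, which may be technical. Over its arrays, the mean exceeded the SD in size for 12 of the 40 member probes, against 20% of all probes and 20.3% of single-symbol probes.

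Of the 32 member probes measured on all 5 arrays, 5 were positive on every array and 1 was negative on every array. Among all probes 4.01% were positive and 11.2% negative on all 5, and among single-symbol probes 3.39% and 12.8%. The 5 positive probes belonged to Ccna2, Cdc25a, Mad2l1, Ran and Smc2, and the negative one to Hmgn2. After centring, the tested probes had medians of -0.20, -0.02, -0.22, 0.02 and -0.13 on arrays 1 to 5, so 0 was not their middle. Centred on probes measured on all arrays, 8 member probes shared a sign on every array, all positive. Centred on single-symbol probes there were 7, again all positive. Both centrings raised the mean of Ccna2 spot 3173, from 0.90 to 1.06 and 1.04. The share of all probes was not counted under either, so these counts have no background beside them. The mean log2 ratio was positive for 32 member probes and negative for 8, with a median of 0.52, against a median of -0.16 for all tested probes. A positive mean was found for 80% of member probes, 39.6% of all probes and 34.2% of single-symbol probes. Counted by gene, with the probes of a gene averaged, 24 of 30 had a positive mean and 6 a negative one, against 33.7% positive among all single-symbol genes.

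Arrays 1 and 3 also had the widest ratios over the 6753 probes measured on all 5 arrays. The part of this width in the sizes was tested only by scaling and by quantile normalization. As a scaled median absolute deviation the width was 0.97 for arrays 1 and 3, 0.48 for array 2, 0.58 for array 4 and 0.63 for array 5. Actb control spots, left out of the fit, had medians of 1.09, -2.10, 0.71, -0.30 and 0.05. With arrays scaled to equal spread, the mean difference of the member median from all probes was 0.56 ± 0.48 (SD, n = 5). With quantile normalization it was 0.59 ± 0.50 (SD, n = 5). Arrays 1, 2 and 3 were scanned at focus position 10 and arrays 4 and 5 at focus position 0. Within the first set alone the member median lay 0.95 from all probes, and within the second 0.22, while array 2 of the first set stood at 0.12.

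Across member probes, the values of arrays 1 and 3 correlated with Pearson r = 0.64 over 35 probes, against 0.34 over 8782 probes of the whole table. Arrays 1 and 4 followed with 0.53 over 36 probes, against 0.08 over 8722 probes. Arrays 3 and 4 gave 0.14 over 33 probes, against 0.04 over 8812 probes. For arrays 2 and 4 it was 0.19 over 37 probes, against 0.31 over 8596 probes. Arrays 1 and 2 gave -0.12 over 39 probes. By Spearman rank correlation, arrays 3 and 4 gave 0.35 against 0.05 over all probes, and arrays 2 and 4 gave 0.50 against 0.35. Arrays 1 and 3 gave 0.70 against 0.39 by rank, arrays 1 and 4 0.62 against 0.11. Arrays 1 and 2 gave -0.06 against -0.09 by rank. For arrays 2 and 4, members were thus below all probes by Pearson r and above them by rank. Probes are not independent replicates, some share a gene and all share the array, so these are descriptions.

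**Figure D3:**
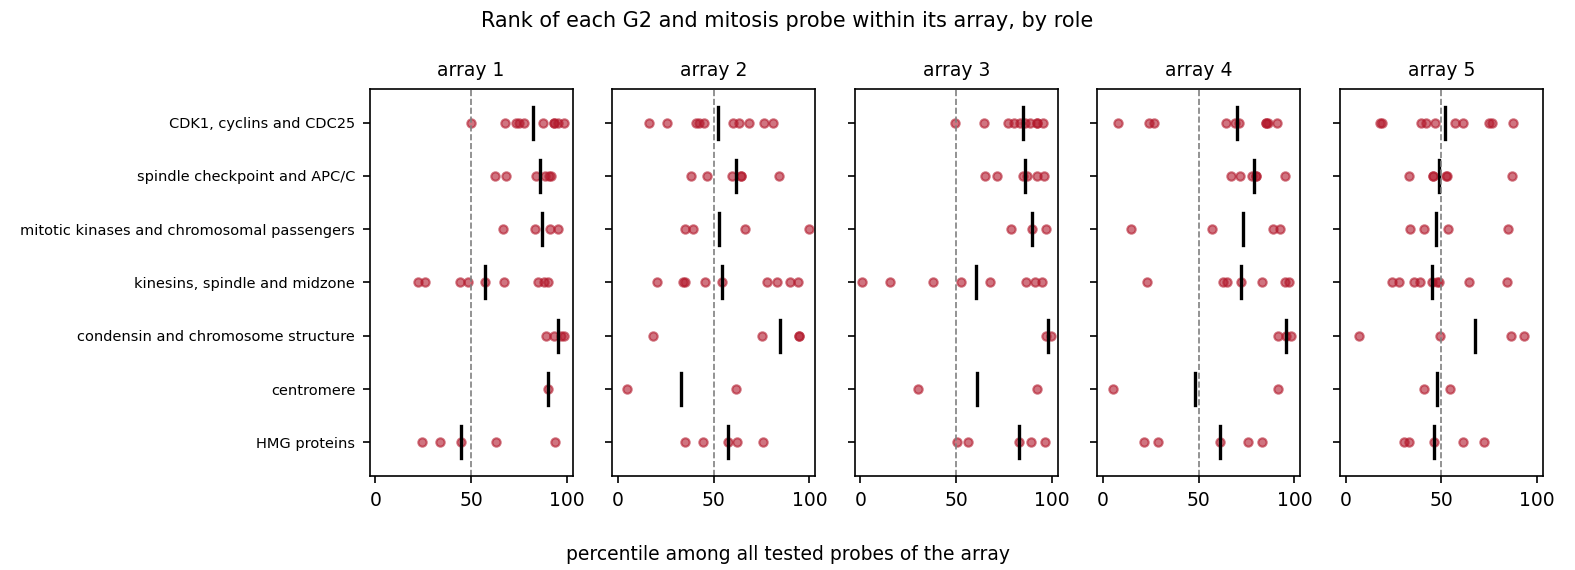
Percentile of each G2 and mitosis probe among all tested probes of its array (x axis), by role (y axis), with 1 panel per array. Points are probes, black bars are medians and the dashed line is percentile 50; on arrays 1 and 3 all 6 checkpoint probes lie to the right of it, and on array 5 the checkpoint median is at 49.

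CDK1, its cyclins and the CDC25 phosphatases were measured by 10 probes of 6 genes. All 10 probes lay above the median of all tested probes on array 1 and 9 did on array 3, against 5 on array 2, 7 on array 4 and 5 on array 5. For Cdk1, the mitotic kinase itself, the tested spot read 3.78, -0.09, 2.36, 1.17 and 0.01 in the order of arrays 1 to 5. Arrays 1, 3 and 4 were high and arrays 2 and 5 near 0. Its mean of 1.45 ± 1.64 (SD, n = 5) was smaller than its spread (limma adjusted p = 0.436). The other Cdk1 spot, on arrays 1, 2 and 4 only, gave 0.22, -1.94 and -0.19 and entered no test.

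Ccna2 encodes cyclin A2, which acts in S phase and G2, and was measured by 3 probes. Spot 3173 gave 2.08, 0.11, 1.43, 0.80 and 0.12 on arrays 1 to 5. Spot 4003 gave 0.80, -0.12, 1.04, 0.37 and 0.55. Spot 13855 gave 0.69, -0.97, 0.71, -0.56 and 0.48. All 3 probes were higher on arrays 1 and 3 than on the other arrays, and their means were 0.90, 0.53 and 0.07. The tested spot of Ccnb2, the gene of cyclin B2, had 2.46, 0.15, 0.85, 0.87 and -0.32, highest on array 1 and near 0 or negative on arrays 2 and 5. Its other spot gave 3.92, 0.03 and -0.08 on arrays 1, 2 and 4.

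The CDC25 phosphatases differed among themselves. Cdc25a, which acts at entry into S phase and in mitosis, had 1.44, 0.51, 1.79, 0.81 and 1.16 on spot 409, positive on all 5 arrays with a mean of 1.14 ± 0.51 (SD, n = 5; limma adjusted p = 0.409). Spot 2566 of the same gene gave 0.61, 0.40, 0.22, -1.86 and -0.19, and spot 10754 gave 0.36, -0.14, 1.21, -0.47 and -0.74. These probes went against spot 409 on arrays 4 and 5. The sign of the mean of spot 10754, 0.04, turned under other scalings, to -0.10 with arrays scaled to equal spread. Cdc25c, a phosphatase of mitotic entry, had 2.12, -0.47, 1.82, 0.41 and -0.27, and followed Cdk1. Cdc25b had -0.20, 0.24, -0.23, 0.28 and -0.78, close to the middle of all probes on each array but the last.

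Spindle checkpoint genes and the machinery of the anaphase-promoting complex were measured by 6 probes of 5 genes, and all 6 had a positive mean. All 6 lay above the median of all tested probes on arrays 1, 3 and 4, 4 did on array 2 and 3 on array 5. Mad2l1, the checkpoint protein that binds and inhibits CDC20, gave log2 ratios 1.86, 0.17, 2.51, 1.70 and 1.13 for arrays 1 to 5, with a mean of 1.47 ± 0.88 (SD, n = 5; limma adjusted p = 0.409). Only array 2 was near 0. Cdc20, the activator of the anaphase-promoting complex, had 1.71, -0.19, 1.14, 0.56 and -0.08, positive on arrays 1, 3 and 4 and near 0 on arrays 2 and 5.

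Bub3, a partner of the checkpoint kinases at the kinetochore, had 1.13, 0.61, 1.293, 0.61 and -0.08 on spot 10228, with a mean of 0.71 ± 0.54 (SD, n = 5). Its spot 2292 gave 0.39, 0.17, 0.26, 0.62 and -0.45, the same sign on each of the 5 arrays and smaller on arrays 1 to 3. Bub1, a checkpoint kinase, had 0.17, 0.10, 1.79, 0.33 and -0.22. Array 3 stood alone there. Ube2c, the ubiquitin-conjugating enzyme of the anaphase-promoting complex, had 1.501, -0.06, 0.47, 0.43 and -0.22, highest on array 1, and the sign of its mean of 0.43 turned to -0.03 without centring.

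Mitotic kinases and chromosomal passenger proteins were measured by 4 probes of 3 genes, all with a positive mean. Nek2, a kinase that helps to separate centrosomes, had 1.75, 0.21, 2.85, 1.30 and -0.07 on arrays 1 to 5, with a mean of 1.21 ± 1.18 (SD, n = 5; limma adjusted p = 0.432). It was high on arrays 1, 3 and 4. Birc5, which encodes survivin, had 2.43, -0.24, 0.79, 0.99 and -0.44, with the same arrays high. Incenp, the scaffold of the passenger complex, had 1.11, -0.17, 1.53, 0.15 and -0.30 on spot 14535. Its spot 5505, missing on array 3, gave 0.32, 4.88, -1.14 and 0.97 on arrays 1, 2, 4 and 5 and shared its sign with spot 14535 on only 1 of 4 arrays. Aurkb, the kinase of that complex, had 2.50 and 0.55 on arrays 1 and 2, the only arrays on which it was measured.

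Kinesins and proteins of the spindle and midzone, 9 probes of 7 genes, did not share a sign, with 5 positive and 4 negative means. The median of these probes lay 0.21, 0.06, 0.32, 0.42 and -0.09 from all tested probes on arrays 1 to 5. Racgap1, part of the centralspindlin complex of the midzone, had 1.48, -0.26, 2.26, -0.61 and -0.22 on spot 6723 and 1.21, -0.24, 1.67, 0.44 and -0.55 on spot 6893. Both probes were high on arrays 1 and 3 and differed in sign on array 4. Kif20a, a midzone kinesin, had -0.35, -0.08, -1.34, 0.29 and -0.40, negative on both arrays 1 and 3. Tpx2, which targets Aurora A to the spindle, had -0.98, 1.47, -0.55 and -0.17 on arrays 1, 2, 3 and 5, the opposite order of arrays.

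Kif11, the kinesin that pushes spindle poles apart, was negative on all 4 measured arrays with spot 6255, at -0.88, -0.70, -0.15 and -0.16 on arrays 1, 2, 3 and 5. On array 3 spot 6255 stood at percentile 52.5 of all tested probes. Spot 11787 gave 1.68, 0.94, 1.67 and -0.62 on arrays 1, 2, 4 and 5. The 2 probes of Kif11 thus had means of opposite sign, -0.47 and 0.91. Stmn1, which destabilises microtubules and is also expressed in neurons, had 0.34, 0.57, -4.55, 2.23 and 0.92. Array 3 lay far below the others for this gene. Ran, the GTPase of nuclear transport and spindle assembly, was positive on all 5 arrays at 0.00, 0.43, 0.35, 0.73 and 0.18, with a mean of 0.34 ± 0.27 (SD, n = 5) that turned to -0.12 without centring. Tubb5, a beta tubulin, had -0.25, 0.04, 1.24, 0.25 and -0.33. Its other spot gave -0.77, 0.38 and 0.74 on arrays 1, 2 and 5 and entered no test. Tubulin, Ran, HMGB1 and HMGN2 have near-identical relatives or processed copies in the genome, and a spotted probe may have detected more than the named gene.

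Condensin and chromosome structure genes, 4 probes of 3 genes, were all positive in the mean and had the highest median of the 7 roles on each array, 2.76, 0.96, 4.25, 1.81 and 0.59 from all tested probes. Smc2, an ATPase of condensin, had 2.99, 0.38, 2.74, 2.99 and 1.07 on arrays 1 to 5, with a mean of 2.03 ± 1.22 (SD, n = 5). It was positive on all 5 arrays and its adjusted p of 0.395 (limma) was the smallest among the members. Smc4, its condensin partner, was missing on array 3 and gave 2.12, 1.505, 1.23 and -1.45 on spot 11259 and 1.57, 1.55, 1.83 and -0.15 on spot 16078 for arrays 1, 2, 4 and 5. Both tested Smc4 probes were positive on arrays 1, 2 and 4 and negative on array 5. They were over 1 on array 2, where most members were near 0. Spot 7421 of Smc4, measured on arrays 4 and 5 only, gave -0.24 and -0.41 and entered no test. Top2a, the topoisomerase that untangles sister chromatids, had 3.999, -0.81, 5.32 and 1.88 on arrays 1, 2, 3 and 5. Its mean of 2.60 ± 2.68 (SD, n = 4) was the largest of any member and no larger than its spread (limma adjusted p = 0.435).

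The centromere was represented by 2 genes that went opposite ways. Cenpa, the histone H3 variant that marks centromeres, had 1.66, 0.13, 1.78, 1.21 and -0.30 on arrays 1 to 5, with a mean of 0.90 ± 0.93 (SD, n = 5; limma adjusted p = 0.441). It followed Cdk1, Nek2 and Birc5 in which arrays were high. Cenpf, a kinetochore protein of G2 and M, had -2.56, -0.77, -2.40 and -0.05 on arrays 2 to 5, negative wherever measured, with the lowest mean of any member, -1.45 ± 1.23 (SD, n = 4; limma adjusted p = 0.432). On array 5 Cenpf stood at percentile 54.5 of all tested probes. Array 1, on which Cenpa was high, gave no Cenpf value.

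HMG proteins, which bend or loosen chromatin, were measured by 5 probes of 4 genes. Hmgb2, the member of its family most tied to proliferating cells, had 2.16, 0.14, 2.63, 0.73 and -0.20 on arrays 1 to 5, with a mean of 1.09 ± 1.25 (SD, n = 5; limma adjusted p = 0.441). The means of its relatives were smaller, 0.21 and 0.09, with 0.19, 0.08, 1.00, 0.23 and -0.45 for Hmgb1 and -0.64, -0.09, 1.46, -0.70 and 0.40 for Hmgb3. All 3 Hmgb genes were positive on array 3, and Hmgb2 alone exceeded 1 on array 1. The nucleosome-binding protein Hmgn2 had -0.34, 0.38, -0.04, 0.51 and 0.10 on spot 2202 and -0.91, -0.24, -0.20, -0.41 and -0.50 on spot 6541. The mean of spot 6541, -0.45 ± 0.28 (SD, n = 5), was negative on all 5 arrays, and both probes were negative on arrays 1 and 3. Without centring, the means of Hmgb1 and of Hmgn2 spot 2202 turned negative, to -0.25 and -0.33.

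For 8 genes several tested probes could be compared, giving 12 pairs of probes. In 8 pairs the means had the same sign and in 4 the opposite sign, the latter in Cdc25a, Kif11 and Hmgn2. The difference between probes, spot 409 minus spot 2566 of Cdc25a, was 1.30 ± 0.95 log2 (SD, n = 5). For Racgap1 it was 0.02 ± 0.64 and for Bub3, spot 2292 minus spot 10228, -0.52 ± 0.39 (SD, n = 5 each). For Cdc25a the difference between these probes exceeded the mean of either.

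**Figure D4:**
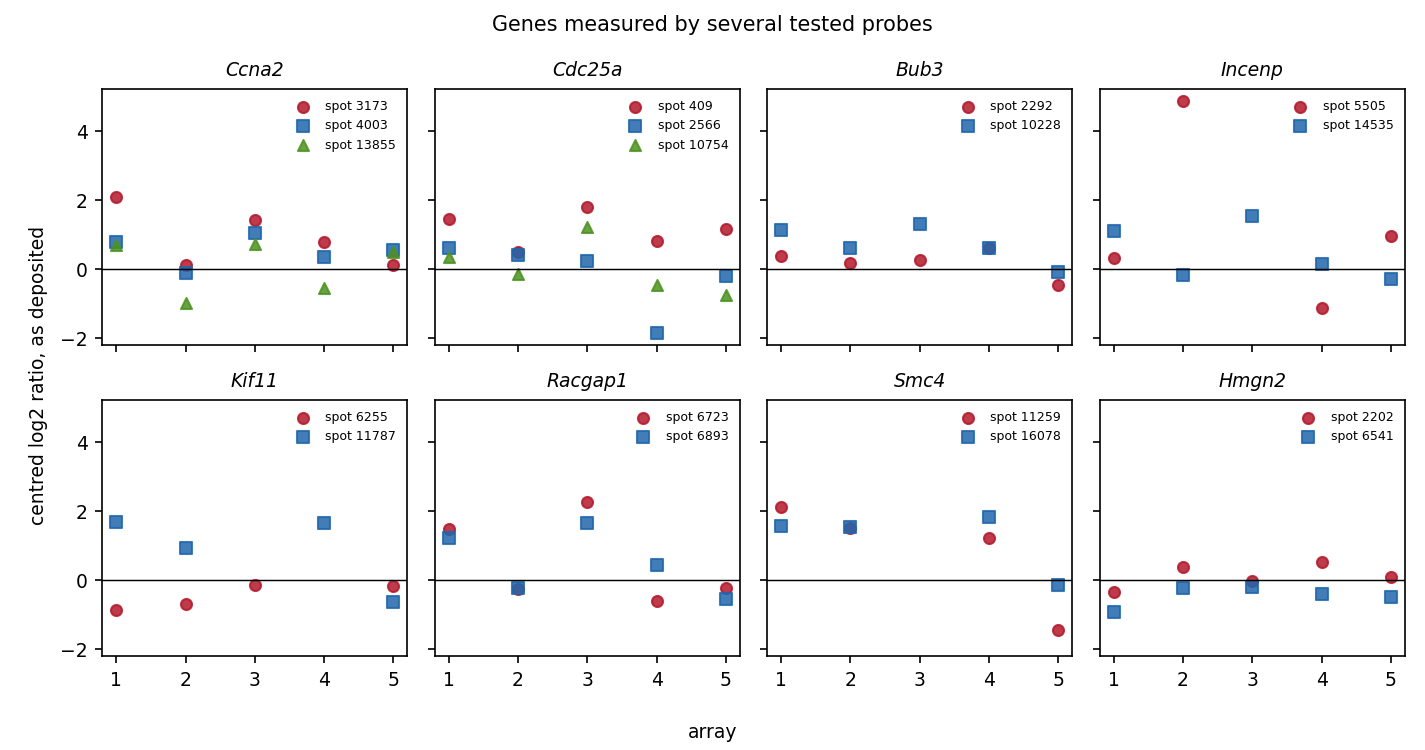
Centred log2 ratios (y axis) on arrays 1 to 5 (x axis) for the 8 genes with several tested probes, 1 panel per gene and 1 colour and symbol per spot. The Racgap1 probes lie on the same side of 0 on every array but array 4, while spot 409 of Cdc25a (mean 1.14) lies above spot 2566 (mean -0.16).

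A longer list of other G2 and mitosis genes had smaller medians, highest on arrays 1 and 3. Of 150 listed genes 51 were measured, by 57 probes. Their median lay 0.55, -0.06, 0.41, 0.10 and -0.11 from all tested probes, and averaged 0.18 ± 0.29 (SD, n = 5) over the arrays. With limma 0 passed after adjustment, and at an unadjusted p under 0.05 there were 5 positive and 1 negative of 57, a share close to the 11.4% of all probes. The 6 with the smallest p were Nek7, Haus4, Plk4, Ncaph2, Cenpo and Rbl1, with adjusted p from 0.293 to 0.432.

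Cenpo, a kinetochore protein, had 0.12, 0.88, 1.12, 1.33 and 0.45 on arrays 1 to 5, positive on all 5. Rbl1, the pocket protein p107 found in DREAM, had 1.70, 0.27, 1.48, 0.68 and 0.22, also positive on all and highest on arrays 1 and 3. Nek7, a kinase of spindle assembly, was negative throughout at -5.20, -3.34, -2.15, -0.98 and -2.96. Haus4, of the augmin complex on spindle microtubules, had 1.32, 0.36, 1.40 and 1.42 on arrays 1, 2, 4 and 5. Ncaph2, of condensin II, had 1.91, 2.48, 0.98 and 0.12 on those arrays with spot 11743. Its other tested probe, spot 13119, gave only 0.26, 0.05, 0.69, -0.14 and -0.19 on arrays 1 to 5, with a mean of 0.14. Plk4, the kinase of centriole duplication, had 1.99, 1.23, 2.23 and 7.31 on arrays 1, 2, 3 and 5.

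DNA replication genes, measured by 32 probes of 28 genes, gave medians of 1.48, -0.03, 1.66, 0.57 and -0.09 from all probes, again highest on arrays 1 and 3. Rod markers, 33 probes of 20 genes, gave -3.22, 0.10, -2.70, -0.38 and 0.19. Cone markers gave -1.11, 0.36, -1.12, 0.39 and -0.36, bipolar cell markers -0.78, -0.16, -1.21, -0.53 and -0.001, and ganglion cell markers -0.63, -0.03, -0.999, -0.34 and -0.012. Arrays 1 and 3, on which the G2 and mitosis genes had the highest medians, thus had the lowest medians of all 4 of these neuron lists, whose part in the result was not tested. The amacrine and horizontal cell list, also of neurons, did not follow, with -0.05 on array 1 and 0.007 on array 3. Retinal progenitor markers, 15 probes of 8 genes, gave -0.60, 0.07, 0.32, 0.01 and -0.25. On array 1 their median was thus negative while that of the mitotic genes was at 1.33. The progenitor list was split and several of its probes share a gene, so its median does not stand for all its genes. On array 1, 3 of its 15 probes exceeded 1 and 5 lay under -1. Those under -1 were the Ccnd1 probes (-2.18, -1.40, -1.28 and -1.65) and Sfrp2 spot 11684 (-2.42). Those over 1 were the other Sfrp2 probes (3.07 and 2.20) and Hes5 (2.22). On array 3, 4 exceeded 1, of Sfrp2 and Hes5, and 4 lay under -1, of Ccnd1 and Pax6.

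The other marker lists were summed up by the lowest and highest of their 5 array medians relative to all probes. These were -0.26 on array 1 and 0.10 on array 5 for Müller glia, and -0.07 on array 4 and 0.46 on array 5 for amacrine and horizontal cells. For vessels, microglia, astrocytes and lens they were -0.60 on array 4 and 0.49 on array 5. Probes measured on at least 4 arrays came from 7 of 12 genes for cones, 8 of 12 for Müller glia, 3 of 10 for bipolar cells, 8 of 15 for amacrine and horizontal cells, 7 of 13 for ganglion cells and 4 of 18 for the last list. For Rb1, the targeted gene, the probe measured on all 5 arrays read -0.07, 0.20, -0.23, 0.04 and -0.08, and the other probe gave 0.95, 2.06, -1.33 and 1.72 on arrays 1, 2, 3 and 5. Neither checks the labels, since the allele is not given here.

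**Figure D5:**
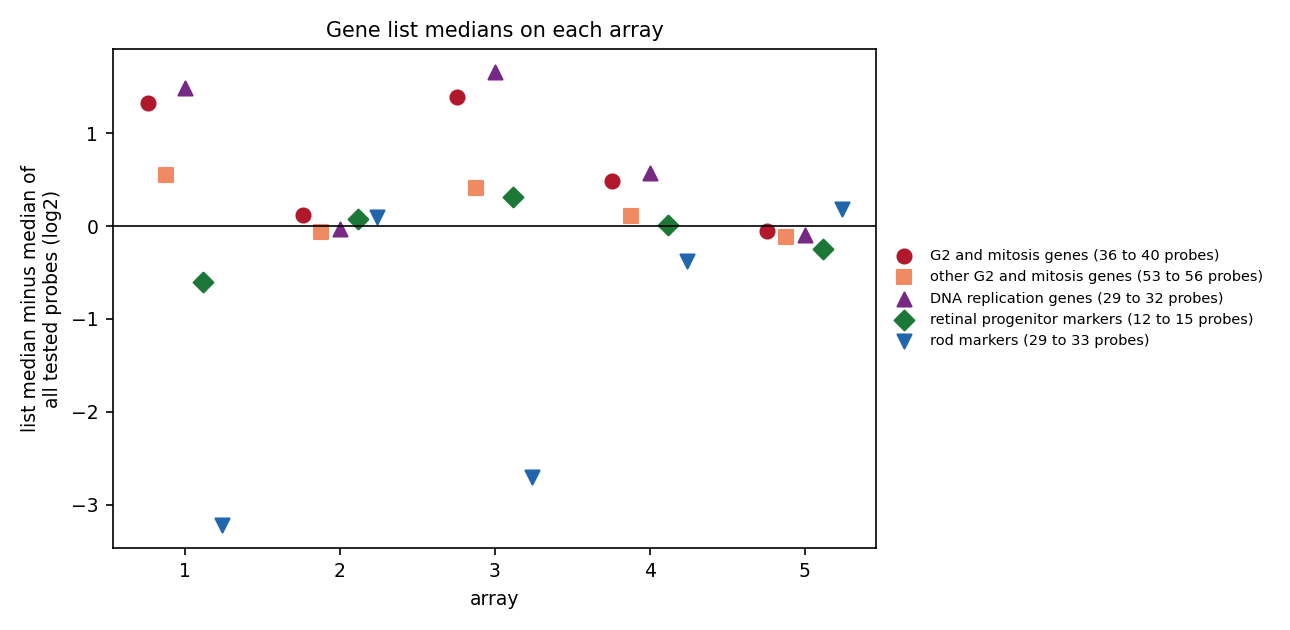
Median log2 ratio of each gene list minus the median of all tested probes (y axis) on arrays 1 to 5 (x axis); symbols are lists, shifted sideways so that they can be told apart. The G2 and mitosis genes (1.33 and 1.39) and the replication genes (1.48 and 1.66) are highest on arrays 1 and 3, where rod markers (-3.22 and -2.70) are lowest.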

How the data were processed

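Log2 ratios of the 2 channels deposited by the authors were used. Per the labels, GenePix Pro 4.1.1.29 read each spot at 635 and 532 nm, subtracted its local background and applied no normalization. The log base was inferred from the filler, and the filter behind empty cells is not given in the sources used here. Cells at 16.61, the log2 of 100000, were taken as fillers and set to missing (1 of 225 member cells, an Aurkb spot). Each array was centred on its median, which lay at -0.755, -0.025, -0.715, -0.058 and -0.742 as deposited, and 192 control spots were left out. Probes measured on at least 4 arrays were tested against 0 with limma 3.58.1 (R 4.3.3), lmFit and eBayes, Benjamini-Hochberg adjusted over 10036 probes with a threshold of 0.05. The test was checked on simulated data. Symbols came from the platform annotation (7722 spots with 1 symbol, 353 with several and 9061 with none), promoters from RefSeq (GRCm38.p6). By rule, the text names up to 4 probes of each role with the smallest p, genes with probes of opposite sign, the extreme means and 6 other G2 and mitosis genes with the smallest p; the remaining member probes are given too. The genes and lists were chosen with earlier results of these data known. Signal over background was not used, so the number of arrays and their spread limit the precision.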

Additional observations from a re-analysis of the deposited data

Results flagged for a closer look

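Among 48 results, 4 held 1 array well apart from the rest, where chance gives about 1 in 20, or 2.4. Bub1 read 1.79 (log2 ratio) on array 3, with its other arrays between -0.22 and 0.33. Stmn1 read -4.55 on array 3, with its other arrays between 0.34 and 2.23. Smc4 spot 16078 had -0.15 on array 5, against 1.55 to 1.83 on the other 3 measured arrays. The median of the HMG proteins relative to all probes was 1.21 on array 3, against -0.14 to 0.20.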

How the results depend on the processing

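No probe of the whole table passed limma's adjusted threshold under any of 20 alternatives. The G2 and mitosis median relative to all probes stayed positive in each, from 0.47 to 0.83 with single arrays left out, 0.19 without arrays 1 and 3, and 0.72 against single-symbol probes, added after seeing the data; centring cannot change it. Of 40 member probes, the 9 at an unadjusted p under 0.05 became 5 without centring, against 21% of all probes. They were 5 with the unmoderated test (10.3% of all probes), 4 with array weights (11.6%) and 4 with focus position as a term (9.69%). Within focus position 10 there were 5 (7.19%) and within focus position 0 there were 3 of 37 (6.98%). Without arrays 1 and 3 there were 2 (8.5%). With single arrays left out there were 4 to 13, where all probes gave 8.23% to 11.7%. The 6 probes of shared sign became 3 genes with probes averaged. Of 551 values of named probes 26 changed sign. Without centring these were Cdc25a spot 10754 (-0.41), Ube2c (-0.034), Ran (-0.12), Hmgb1 (-0.25) and Hmgn2 spot 2202 (-0.33). Cdc25a spot 10754 was also -0.10 with equal spread or quantiles, -0.16 with weights, -0.064 with the focus term, -0.45 without arrays 1 and 3, -0.60 within focus position 0, and -0.25 to 0.24 with single arrays left out. Cdc25a spot 2566 was -0.36 to 0.26 with single arrays left out, positive without array 4, and 0.41 within focus position 10 and 0.34 as a gene mean. Without arrays 1 and 3 Incenp spot 14535 was -0.11, Racgap1 spot 6893 -0.12 and Hmgb1 -0.047. Within focus position 0 they were -0.074, -0.053 and -0.11, with Incenp spot 5505 at -0.083 and Smc4 spot 11259 at -0.11. As gene means Kif11 was 0.33 and Hmgn2 -0.16. The causes were not tested. Each log2 ratio already set mutant against wild-type RNA within an array, and limma tested these ratios against 0. No further pairing between arrays was used, because all arrays belong to 1 group.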
